A study of Mus musculus with 7 samples.

Results

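The forkhead genes encode transcription factors that share a winged-helix DNA-binding domain, and FOXL2, the factor named in the study's title, is a member. The 44 members described here are all gene symbols of the deposited table that consist of Fox, a class letter from a to s and a number, out of 24964 symbols listed. Opposite-strand genes such as Foxl2os were left out by that rule. RNA was sequenced from whole uterus of 12-week-old mice in diestrus, in 3 libraries of genotype Pgrcre/+ (controls, numbered 1, 2 and 4) and 4 libraries of genotype Pgrcre/+Foxl2LsL/+ (numbered 1 to 4). Every mouse, controls included, thus carried 1 Pgrcre allele, in which Cre recombinase is made from the progesterone receptor gene, so that Cre acts in the cells that use this gene. Foxl2LsL is an allele whose abbreviation the labels do not spell out.

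Forkhead classes divide the work by cell type. In the uterus FOXA2 is needed for the glands, FOXO1 acts in stroma that decidualizes and in the luminal epithelium, FOXM1 drives the genes of mitosis in dividing cells, FOXJ1 switches on the genes of motile cilia, and FOXF1 is a mesenchymal factor that responds to hedgehog signals. FOXL2 is best known from granulosa cells of the ovary and is also made in uterine stroma. FOXO proteins are held out of the nucleus by AKT kinases, so that their messenger RNA level does not tell their activity.

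The libraries had denominators of 47800000 to 67300000 fragments, recovered from the FPKM values (fragments scaled to gene length and to library size), and 74.4% to 77.5% of each lay on listed genes. Markers of the labelled tissue were present: the 7 epithelium markers summed to 577 to 1521 FPKM, the 7 stroma markers to 969 to 1631 FPKM and the 7 smooth muscle markers to 838 to 1931 FPKM over the 7 libraries. Control 4 had the lowest epithelium sum and the highest smooth muscle sum of the 3 controls. Adipocyte markers ranged from 0.173 to 73.1 FPKM in controls and from 2.21 to 202 FPKM in the libraries labelled Foxl2LsL. In whole tissue, fewer cells of a type and less RNA per cell cannot be told apart, which holds for every result below. Nothing in the labels says how the animals relate to each other, so p-values measure the spread between these libraries.

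Of the 44 members, 21 had a mean of at least 1 FPKM over the 7 libraries and were tested, 11 of them at a mean of 5 FPKM or more. The highest were Foxo4, Foxo1, Foxl2, Foxk1 and Foxj2. Foxp2 and Foxc1 reached a mean of 1 FPKM only through the libraries labelled Foxl2LsL, and Foxs1, Foxj1 and Foxq1 only through controls. In controls the order began with Foxk2 at 14.5 FPKM, Foxl2 at 14.4, Foxo1 at 14.3 and Foxo4 at 13.8 FPKM, and the libraries of these neighbours overlapped. In the libraries labelled Foxl2LsL it began with Foxo4 at 17.2 FPKM, Foxk1 at 15.3, Foxo1 at 15.1 and Foxl2 at 14.7 FPKM, again with overlap between neighbours, while Foxk2 stood in place 9. Ranges of neighbours overlapped in 18 of 20 steps of the order in controls and in 17 of 20 in the other group. Summed over all 44 members, controls held 136 to 161 FPKM and the libraries labelled Foxl2LsL 138 to 153 FPKM. The 4 Foxo genes held 22.2% to 25.3% of that sum in controls and 27.5% to 28.2% in the other group.

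**Figure D1:**
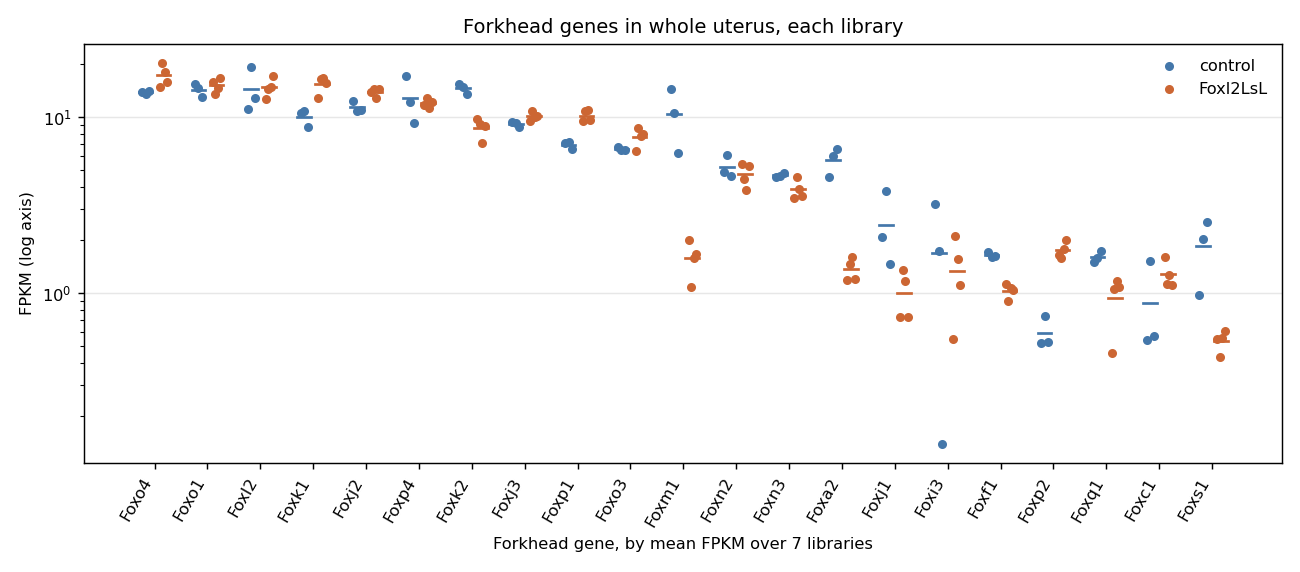
FPKM (log axis) of the 21 tested forkhead genes, ordered by their mean over the 7 libraries. Points are libraries (3 controls, 4 labelled Foxl2LsL) and short lines are group means. Foxm1, Foxa2 and Foxs1 are lower in every library labelled Foxl2LsL, Foxp2 is higher, and Foxl2 overlaps.

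Of the 21 tested members, 10 passed an adjusted p of 0.05, 4 higher (Foxp2, Foxk1, Foxp1 and Foxj2) and 6 lower (Foxm1, Foxa2, Foxs1, Foxj1, Foxk2 and Foxf1) in the libraries labelled Foxl2LsL. That is 47.6% of the tested members. Among all 13334 genes tested the share called was 40.6%, with 16.7% higher and 23.9% lower, so that the share of forkhead genes called lay near that of all genes. The groups did not overlap for 13 of the 21 (61.9%), against 47.6% of all tested genes. A change of 2-fold or more in FPKM + 1 together with a call was seen for Foxm1 and Foxa2, 2 of 21 members (9.52%), against 7.78% of all genes (3.62% higher and 4.16% lower). Both members were lower. In plain FPKM the means of Foxp2, Foxs1 and Foxj1, also called, were 2.94, 0.291 and 0.408 times those of controls. The median log2 fold change was -0.05 over the 21 members and -0.05 over all tested genes. Fold changes throughout are differences of log2(FPKM + 1), which understate the change of low genes, with standard errors (SE) and adjusted p from limma.

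**Figure D2:**
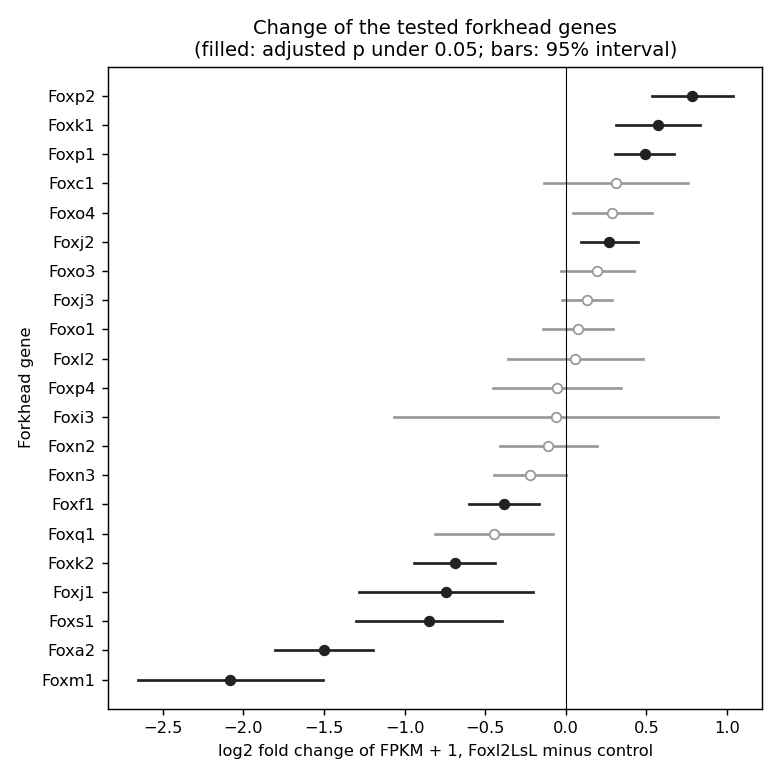
Log2 fold change of FPKM + 1 (libraries labelled Foxl2LsL minus controls) of the 21 tested forkhead genes, with 95% intervals as bars; filled points passed an adjusted p of 0.05. The points run from -2.08 for Foxm1 to 0.78 for Foxp2, and Foxl2 lies at 0.06.

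The sequence just upstream of the start site is shown for 3 members that stand for different patterns in these data: Foxa2, which fell, Foxk2, which fell while its close relative Foxk1 rose, and Foxi1, which was near 0 in controls. They were chosen after their values were seen. Each run holds the 250 bases before the RefSeq start on GRCm38.p6, written 5′ to 3′ on the gene's own strand, with CpG dinucleotides in capitals. The windows are chr2:148046970-148047219 on the minus strand for Foxa2, chr11:121259737-121259986 on the plus strand for Foxk2 and chr11:34208090-34208339 on the minus strand for Foxi1. No exon of the GENCODE M21 annotation lies in them.
Foxa2: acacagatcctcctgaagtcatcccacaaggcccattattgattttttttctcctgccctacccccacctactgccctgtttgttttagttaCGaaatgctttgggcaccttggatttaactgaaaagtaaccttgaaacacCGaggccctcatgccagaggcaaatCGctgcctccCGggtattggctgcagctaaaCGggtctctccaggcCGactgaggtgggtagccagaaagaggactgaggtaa
Foxk2: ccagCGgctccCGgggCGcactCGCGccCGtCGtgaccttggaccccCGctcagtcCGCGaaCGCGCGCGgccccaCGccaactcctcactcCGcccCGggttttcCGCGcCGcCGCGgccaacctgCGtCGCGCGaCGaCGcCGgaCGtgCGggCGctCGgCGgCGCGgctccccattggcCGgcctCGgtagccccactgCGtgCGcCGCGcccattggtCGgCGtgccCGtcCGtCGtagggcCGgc
Foxi1: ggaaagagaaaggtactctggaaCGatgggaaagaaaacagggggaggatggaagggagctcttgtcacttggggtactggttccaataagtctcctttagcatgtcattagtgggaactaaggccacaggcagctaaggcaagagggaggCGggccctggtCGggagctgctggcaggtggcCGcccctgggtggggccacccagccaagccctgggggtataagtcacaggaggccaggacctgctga
The Foxk2 window holds 48 CpG and is 78.4% G and C, while those of Foxa2 and Foxi1 hold 6 and 4 CpG. Over the 32851 windows of all genes the median was 6 CpG. Over the 33 windows of the 28 members with an entry it was 16, with a range from 3 to 48. The median was 23 for windows of the tested members with an entry and 12 for those of members below the level tested. Of the letters that forkhead proteins are known to bind, 4 strings were searched on both strands. TGTTTAC occurs in 3.17% of all windows and, among the members, in that of Foxa1. TGTTTGC occurs in 4.30% of all windows and in those of Foxj3 and Foxp1. The variant with a last T, TGTTTAT, occurs in 4.16% of all windows and in those of Foxp1 and Foxp3. TGTTTGT occurs in 5.84% of all windows and in those of Foxa2, Foxi2 and Foxp1. It is the only searched string found in the 3 windows shown, where it stands once, on the printed strand of Foxa2.

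Foxl2 (chromosome 9, 98955288 to 98958543, GRCm38) was at 11.1, 19.3 and 12.9 FPKM in controls 1, 2 and 4 and at 12.7, 14.3, 14.8 and 17.2 FPKM in libraries 1 to 4 labelled Foxl2LsL. The groups overlapped, with the highest value in a control. Its log2 fold change was 0.06 (SE 0.18, 95% interval -0.36 to 0.48; adjusted p 0.818), and the sign turned to -0.10 without control 1 and to -0.01 without Foxl2LsL 4. The gene named in the genotype is therefore not higher in the table, and directions below are given for the labels as they stand. Whether the table counts a transcript of the Foxl2LsL allele could not be settled from values per gene, so the flat value does not tell whether the allele was active. The labels do not give the allele's locus. Gt(ROSA)26Sor, a transcript of the Rosa26 locus, did differ between the labels, at 13.3 to 16.2 FPKM in controls and 23.2 to 32.7 FPKM in the others (adjusted p 0.00181). By contrast Foxl2os, which is transcribed from the other strand (98949781 to 98955299) and overlaps the start of Foxl2 in this annotation, was at 22.6 to 37.5 FPKM in controls and at 4.72 to 6.75 FPKM in the others. The use of strand in counting is not given in the sources used here, so reads of such overlapping pairs may be mixed.

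Fendrr and Foxd2os, opposite-strand neighbours of other members, were chosen after their own values and those of Foxl2os had been seen. Fendrr, beside Foxf1, was at 1.47 to 1.88 FPKM in controls and 0.922 to 1.31 FPKM in the libraries labelled Foxl2LsL and fell by 0.35 on the log2 scale (adjusted p 0.0351, and 0.0186 to 0.150 over the alternatives). Foxd2os, beside Foxd2, was at 0.455 to 0.938 FPKM in controls and at 0.08 to 0.159 FPKM in the libraries labelled Foxl2LsL, without overlap. Unlike Foxl2, the members next to these genes were also lower: Foxf1 passed the test, and Foxd2, described with the low members, did not overlap between the groups. Picked in this way, these pairs do not tell how often such neighbours share a direction.

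**Figure D3:**
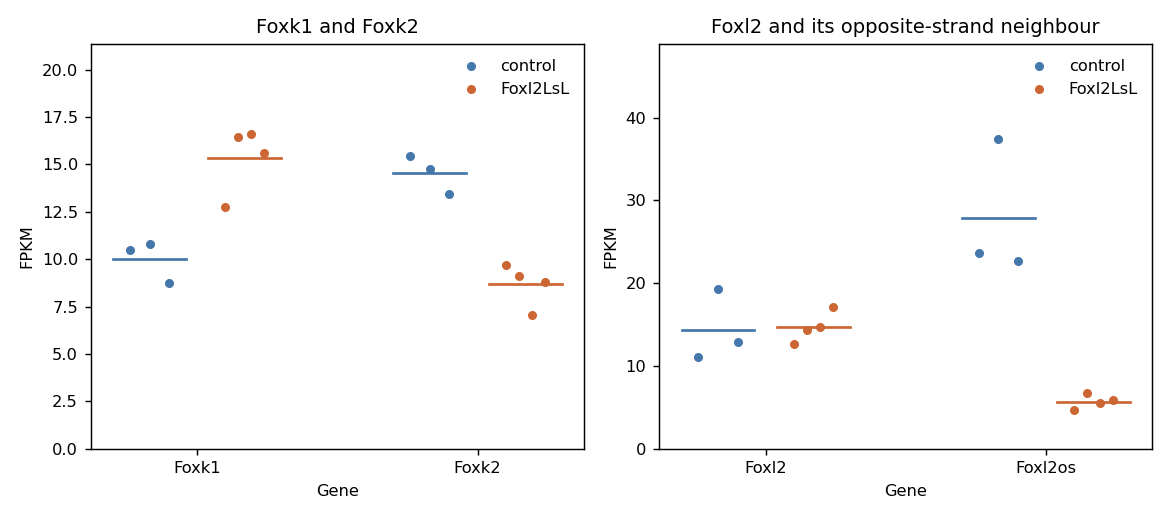
FPKM in each library of Foxk1 and Foxk2 (left) and of Foxl2 and Foxl2os (right); points are libraries and lines are group means. Foxk1 is higher and Foxk2 lower in all 4 libraries labelled Foxl2LsL, and Foxl2 overlaps while Foxl2os does not.

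Foxm1 (chromosome 6, 128362967 to 128376146), the mitotic factor, showed the largest fall of the tested members. It was at 14.3, 10.5 and 6.2 FPKM in controls 1, 2 and 4 and at 1.996, 1.08, 1.57 and 1.66 FPKM in libraries 1 to 4 labelled Foxl2LsL. All 4 of these lay below the lowest control, and the controls themselves spread more than 2-fold. The log2 fold change was -2.08 (SE 0.25; adjusted p 0.000948). Past the threshold 16.7% of all tested genes rose and 23.9% fell, the shares to set beside each list count here and below. Of 15 genes that FOXM1 is known to activate, 14 fell and 0 rose past the threshold, with a median log2 fold change of -2.04. Among them Top2a, the topoisomerase of dividing cells, went down from 43.1 ± 17.8 (SD, n = 3) to 6.06 ± 2.59 FPKM (SD, n = 4; plain ± values below are likewise SD over 3 controls and 4 others). The mitotic cyclin genes Ccnb1 and Ccnb2 fell by 2.52 and 2.41 and Cdc20, an activator of the anaphase-promoting complex, by 2.36 on the log2 scale. Cdc25b, a phosphatase, was at 18.3 ± 4.24 and 16.4 ± 0.778 FPKM and was not called (adjusted p 0.473). The summed level of the list ranked the controls as Foxm1 did, at 389, 307 and 166 FPKM in controls 1, 2 and 4, and lay at 47.9 to 95.7 FPKM in the other group. The part of the number of dividing cells in the fall of Foxm1 and of this list was not tested.

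Foxa2 (chromosome 2, 148042877 to 148046969), the gland factor whose upstream sequence is printed above, was at 4.57 to 6.57 FPKM in controls and at 1.18 to 1.60 FPKM in the libraries labelled Foxl2LsL, with a mean 0.238 times that of controls and without overlap (adjusted p 0.000320). Of 9 gland genes listed for their dependence on FOXA2 or their use in glands, 6 were tested, of which 2 fell, 1 rose and 3 were not called. Cxcl15, a chemokine of glands, fell from 27.8 ± 5.19 to 4.26 ± 0.813 FPKM and Aldh1a1, a retinal dehydrogenase, from 49.1 ± 23.9 to 15.4 ± 1.48 FPKM. Klk1, a kallikrein protease, rose from 0.784 ± 0.191 to 5.06 ± 0.953 FPKM. Sox17, which works with FOXA2 in gland formation, was at 71.9 ± 14.3 and 67.5 ± 9.77 FPKM. Lif, the implantation cytokine that glands release under FOXA2, was at 0.944 ± 0.186 and 1.64 ± 0.680 FPKM (adjusted p 0.165). Of the 7 general epithelium markers, 2 were higher and 0 lower past the threshold (Krt18 by 0.80 and Elf3 by 1.95 on the log2 scale). Their sums were 577 to 1236 FPKM in controls and 987 to 1521 FPKM in the others, which overlap. These markers do not measure gland content, and the part of gland number in the fall of Foxa2 was not tested. The remaining Foxa genes were close to absent, Foxa1 with at most 2 fragments and Foxa3 with 2 to 14 fragments in a library.

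Foxk1 and Foxk2 are closely related, broadly expressed factors known for regulating autophagy and glycolysis, and they moved in opposite directions. Foxk1 (chromosome 5, 142401497 to 142462011) was at 10.5, 10.8 and 8.74 FPKM in controls 1, 2 and 4 and at 12.7, 16.4, 16.6 and 15.6 FPKM in libraries 1 to 4 labelled Foxl2LsL (log2 fold change 0.57, SE 0.11; adjusted p 0.00622). Foxk2 (chromosome 11, 121259990 to 121309896) went from 15.4, 14.8 and 13.4 FPKM to 9.70, 9.13, 7.07 and 8.82 FPKM (log2 fold change -0.69, SE 0.11; adjusted p 0.00252). The groups did not overlap for either gene. Within a library the scaling cancels, and the ratio of Foxk1 to Foxk2 was 0.678, 0.731 and 0.651 in controls against 1.31, 1.80, 2.35 and 1.77 in the others. Its two-sided exact permutation p was 0.0571, the smallest that 35 splits of 3 and 4 libraries allow. After Benjamini-Hochberg adjustment it was 0.1 over the 7 ratios, Foxl2 to Foxl2os among them, that were computed after seeing the values. With Foxk1 higher and Foxk2 lower without overlap, the ratio had to separate the groups. Its p is therefore no separate support. The pair together made up 15.8% to 16.3% of all forkhead FPKM in controls and 16.3% to 16.7% in the others.

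The Foxp genes encode repressors that work as dimers. Foxp2 (chromosome 6, 14901349 to 15441977) had the largest rise of the tested members: it was at 0.520, 0.738 and 0.524 FPKM in controls and at 1.64, 1.58, 1.78 and 1.99 FPKM in the libraries labelled Foxl2LsL (log2 fold change 0.78, SE 0.11; adjusted p 0.00153). On the FPKM scale the mean was 2.94 times that of controls, with at least 233 fragments in each library. Foxp2 reached the level tested only through the libraries labelled Foxl2LsL, and members below that level do not enter this rank. Foxp1 (chromosome 6, 98925338 to 99522721) was at 6.55 to 7.20 FPKM in controls and 9.47 to 10.9 FPKM in the others, again without overlap (log2 fold change 0.49, SE 0.08; adjusted p 0.00275). Foxp4 was the highest of the class in controls, at 16.999, 12.1 and 9.28 FPKM, and lay at 11.2 to 12.8 FPKM in the others, inside the range of controls (95% interval of the log2 fold change -0.45 to 0.34). Of 10 genes for proteins that bind FOXP factors, 4 fell, 1 rose and 5 were not called. Those that fell were Hdac2 (-0.58), Mta1 (-0.51), Gatad2b (-0.43) and Hdac1 (-0.34), all of the nucleosome-remodelling deacetylase complex, and Runx1, a partner of FOXP3, rose by 0.67 on the log2 scale. Foxp3 itself, the factor of regulatory T cells, had 8 to 20 fragments in a library. Markers of these T cells summed to 2.13 to 2.73 FPKM in controls and 4.69 to 4.94 FPKM in the others, of which Ikzf2 made up most and was the only marker of the 5 above the level tested.

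The Foxo genes, effectors of insulin and growth factor signals, were the most abundant class, and none of those tested was called. Foxo6 lay below the level tested and is given with the low members, where it was lower without overlap. Foxo1 (chromosome 3, 52268336 to 52353221) was at 12.9 to 15.4 FPKM in controls and 13.5 to 16.6 FPKM in the libraries labelled Foxl2LsL (log2 fold change 0.08, 95% interval -0.14 to 0.29; adjusted p 0.538). Foxo3, known for keeping ovarian follicles dormant, was at 6.57 ± 0.128 and 7.70 ± 0.938 FPKM (adjusted p 0.147, and 0.0349 without Foxl2LsL 1) and overlapped. Foxo4 was at 13.5 to 14.0 FPKM in controls and 14.7 to 20.2 FPKM in the others, without overlap, and missed the threshold (log2 fold change 0.29, SE 0.11; adjusted p 0.0630). It passed with median centring (adjusted p 0.0370), with quantile normalization (0.0440), with limma-voom on the recovered fragments (0.0364; 39.7% of all genes called) and without Foxl2LsL 1 (0.0325).

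Genes that act on or under FOXO proteins moved both ways. Of 20 FOXO targets, 17 were tested: 5 rose, 2 fell and 10 were not called, with a median log2 fold change of 0.25. The 7 of 17 called lay near the 40.6% called among all tested genes. The stress gene Gadd45a rose from 16.7 ± 6.21 to 58.3 ± 6.31 FPKM (log2 fold change 1.80), Pck1, an enzyme of gluconeogenesis, from 1.13 ± 0.990 FPKM to a mean of 4.76 FPKM (2.76 to 8.41), and Fbxo32, a ubiquitin ligase of muscle wasting, by 0.62 on the log2 scale, while Klf2, a factor of quiescent endothelium, fell by 0.62. Pck1 is also a product of fat cells, whose markers varied widely between libraries as given above, and their part in its change was not tested. Of 19 genes of the kinase pathway upstream of FOXO, 4 rose, 4 fell and 11 were not called. The 8 of 19 called again lay near the share of all tested genes. Pik3r1, the regulatory subunit of PI3 kinase, rose from 24.2 ± 1.56 to 50.5 ± 2.33 FPKM and Igf1r, the receptor of insulin-like growth factors, by 0.69 on the log2 scale. Skp2, part of a ubiquitin ligase and also tied to the cell cycle, fell from 5.35 ± 0.783 to 1.90 ± 0.197 FPKM, and Sgk3, a kinase that phosphorylates FOXO3, fell by 0.65.

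**Figure D4:**
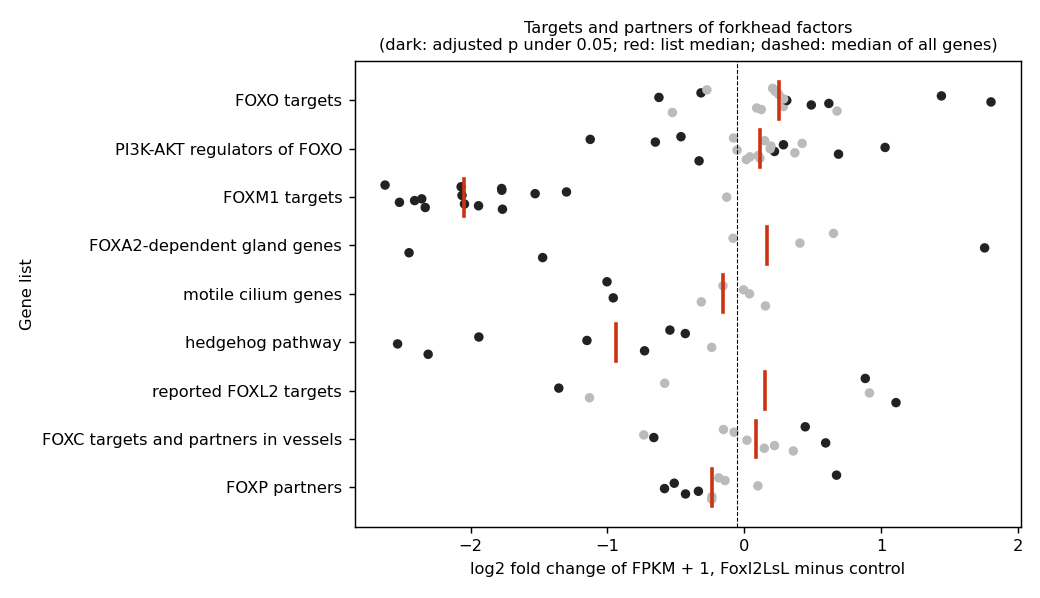
Log2 fold change of FPKM + 1 of the tested genes in 9 lists of targets and partners of forkhead factors; dark points passed an adjusted p of 0.05, red marks are list medians and the dashed line is the median of all tested genes, at -0.05. The FOXM1 targets (median -2.04) and the hedgehog pathway (median -0.94) lie to the left, and the other lists have points on both sides.

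Foxf1 (chromosome 8, 121084386 to 121088144) was at 1.71, 1.61 and 1.61 FPKM in controls and, on average, at 1.03 ± 0.0942 FPKM (SD, n = 4) in the libraries labelled Foxl2LsL (log2 fold change -0.38, SE 0.09; adjusted p 0.0144). The groups did not overlap. With a block for the replicate number the change was -0.39 with an adjusted p of 0.0767. Among all tested genes 23.9% fell past the threshold. Of 11 hedgehog pathway genes, 8 were tested and 7 fell. These included the ligand gene Ihh (23.4 ± 4.94 to 3.20 ± 0.637 FPKM), the pathway's transcriptional effector Gli1 (52.6 ± 22.0 to 9.28 ± 1.42 FPKM) and the receptor gene Ptch1, by 1.15 on the log2 scale. Foxf2 and Foxl1, other mesenchymal members known as hedgehog targets in the gut, had at most 1 and 7 fragments in a library.

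Foxs1 (chromosome 2, 152931898 to 152933208), known from pericytes, the contractile cells around capillaries, was at 0.974, 2.03 and 2.52 FPKM in controls and at 0.547, 0.431, 0.555 and 0.610 FPKM in the libraries labelled Foxl2LsL (log2 fold change -0.85, SE 0.19; adjusted p 0.0114). Of 5 pericyte markers, 3 fell and 2 were not called; Rgs5, the strongest of them, fell from 49.8 ± 20.5 to 10.8 ± 0.518 FPKM. The pericyte markers summed to 55.8, 99.0 and 109 FPKM in controls 1, 2 and 4, in the order of Foxs1. In libraries 1 to 4 labelled Foxl2LsL they summed to 37.3, 48.0, 40.2 and 44.0 FPKM, with the highest sum where Foxs1 was lowest. The part of pericyte number in the fall of Foxs1 was not tested.

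Foxc1 and Foxc2, which act in blood and lymph vessels and in mesenchyme, were low. Foxc1 was at 0.538, 1.52 and 0.569 FPKM in controls and 1.11 to 1.61 FPKM in the others and was not called (log2 fold change 0.31; adjusted p 0.227). Without control 2 its log2 fold change was 0.54 with an adjusted p of 0.0291. Foxc2 lay below the level tested, as given with the low members. Of 10 genes under or beside FOXC factors in vessels, 2 rose, 1 fell and 7 were not called: the Notch ligand gene Dll4 by 0.59 and Tbx1 by 0.45 upward, and Hey2, a Notch target, by 0.66 downward on the log2 scale. Endothelium markers were mostly lower (5 of 7 fell and Vwf rose) and summed to 115 to 154 FPKM in controls and 81.8 to 90.6 FPKM in the others. Of the 4 tested markers of lymphatic endothelium, Prox1, Flt4 and Pdpn rose and Lyve1 fell. The part of vessel content in the values of Foxc1 and Foxc2 was not tested.

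Foxj1 (chromosome 11, 116330704 to 116335399), the ciliary factor, was at 2.08, 3.78 and 1.47 FPKM in controls and at 0.728, 1.35, 1.17 and 0.731 FPKM in the libraries labelled Foxl2LsL (log2 fold change -0.74, SE 0.23; adjusted p 0.0368). The lowest control lay just above the highest of the others. The call was lost when any of 5 libraries was left out, with adjusted p of 0.0614 without control 1, 0.0969 without control 2 (where the log2 fold change shrank to -0.48), 0.0829 without Foxl2LsL 1, 0.0650 without Foxl2LsL 3 and 0.0881 without Foxl2LsL 4, and also with no filter on low values (0.0592). Of 15 listed genes of motile cilia, 7 were tested. Of these, Rfx2, a factor that works with FOXJ1, fell by 0.96, and Tppp3, a tubulin-binding protein, fell from 116 ± 11.5 to 58.0 ± 10.2 FPKM. The structural genes Tekt2, Rsph1, Ccdc39 and Cfap126 were not called. Ovgp1, the oviduct's major secretory product, was at 291 FPKM in control 2, where Foxj1 was highest, and at 1.65 to 19.7 FPKM in the other 6 libraries. Dnah5 and Mcidas, further markers of ciliated oviduct cells, were at most 0.374 and 0.053 FPKM. Pax8 and Sncg, also listed as oviduct markers, rose past the threshold, by 0.69 and 0.88 on the log2 scale. The part of oviduct tissue in the level of Foxj1 in control 2 was not tested.

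The relatives Foxj2 and Foxj3 are broadly expressed. Foxj2 (chromosome 6, 122819914 to 122845366) was at 10.8 to 12.3 FPKM in controls and 12.8 to 14.4 FPKM in the libraries labelled Foxl2LsL (log2 fold change 0.27, SE 0.08; adjusted p 0.0251), without overlap. Its call was lost without control 2 (0.0906), control 4 (0.0574), Foxl2LsL 1 (0.0532), Foxl2LsL 2 (0.0525) or Foxl2LsL 4 (0.0713), and with the replicate block (0.0688), all as adjusted p of limma. Foxj3 was at 9.13 ± 0.309 and 10.1 ± 0.503 FPKM (adjusted p 0.157, and 0.0393 with limma-voom). Foxn2 and Foxn3, factors linked to the cell cycle checkpoint, were at 5.17 ± 0.759 and 4.72 ± 0.739 FPKM and at 4.66 ± 0.146 and 3.87 ± 0.506 FPKM, and both overlapped between the groups. Foxn3 had an adjusted p of 0.104, and of 0.0329 without Foxl2LsL 2.

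Foxq1, an epithelial member, was at 1.501, 1.585 and 1.74 FPKM in controls and at 0.452, 1.05, 1.17 and 1.07 FPKM in the libraries labelled Foxl2LsL. The groups did not overlap, and the adjusted p of 0.0543 missed the threshold (log2 fold change -0.45, SE 0.16), while the fit from 0.1 FPKM gave 0.0460 and the fit without the intensity trend 0.0421. Foxi3, a factor of ectodermal placodes, varied most among controls relative to its mean of the 21 tested members, at 3.19, 1.73 and 0.139 FPKM in controls 1, 2 and 4, and was at 0.544, 2.10, 1.55 and 1.105 FPKM in the others (log2 fold change -0.06, 95% interval -1.07 to 0.94). The sums of epithelium markers ranked the 3 controls in the same order as Foxi3, at 1236, 869 and 577 FPKM, and the 4 others in the opposite order, at 1521, 987, 1303 and 1362 FPKM in libraries 1 to 4. Their part in this spread was not tested.

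A further 4 members lay below 1 FPKM on average but had at least 10 fragments in every library of a group. Foxi1 (chromosome 11, 34204338 to 34208089), the factor of acid-secreting cells in kidney and inner ear, had 1, 1 and 4 fragments in controls and 19 to 44 in the libraries labelled Foxl2LsL. Summed over each group these were 6 and 113 fragments, a ratio of rates of 16.3 with an exact 95% interval of 7.28 to 45.5 that covers counting error only. Kept in a fit of all genes with a mean of at least 0.1 FPKM, Foxi1 had an adjusted p of 0.00949, where 36.2% of 16728 genes were called. Atp6v1b1, a proton pump subunit gene that FOXI1 activates and that was chosen after its own values had been seen, was at 0 to 0.032 FPKM in controls and 0.553 to 1.065 FPKM in the others (adjusted p 0.00103 in the same fit). Both genes reached 0.1 FPKM on average, and Foxi1 the 10 fragments, only through the libraries labelled Foxl2LsL. The interval and these adjusted p thus describe genes taken up where they are high and are no separate support. Slc26a4, also under FOXI1 in the inner ear, was at 0.137 ± 0.0759 and 0.146 ± 0.0693 FPKM. The Foxi1 level stayed low in all 7 libraries, at no more than 0.285 FPKM.

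Foxc2 was at 0.263 to 0.622 FPKM in controls and 0.676 to 0.946 FPKM in the libraries labelled Foxl2LsL (adjusted p 0.0476 in the fit from 0.1 FPKM and 0.0546 with no filter). Foxo6, a member best known from brain, was at 1.11 to 1.34 FPKM in controls and 0.621 to 0.918 FPKM in the others (adjusted p 0.0319 in the same fit, and 0.157 without Foxl2LsL 3, where its mean of the remaining libraries let it enter). Foxd2 had 17 to 29 fragments in controls and 7 to 9 in the others, and entered only the fit with no filter on low values (adjusted p 0.0241), in which 27.6% of genes were called. It reached 10 fragments in every library of controls only. None of these 3, nor Foxi1, overlapped between the groups. Among all 3024 genes below the level tested that had at least 10 fragments in every library of a group, the groups did not overlap for 38.9%.

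The other 19 members were under that depth. Foxb2, Foxd4, Foxe1, Foxe3 and Foxi2 were at 0 in every library. Foxa1, Foxb1, Foxd1, Foxf2, Foxn4 and Foxr1 had at most 3 fragments, the floor of detection used here, in each library. Foxa3, Foxd3, Foxh1, Foxl1, Foxn1, Foxp3 and Foxr2 exceeded 3 fragments in some library and reached at most 20. None of those with a fragment passed the threshold in the fit with no filter on low values, which at this depth does not show that they were alike: Foxr2 had 1 to 4 fragments in controls and 5 to 7 in the libraries labelled Foxl2LsL.

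**Figure D5:**
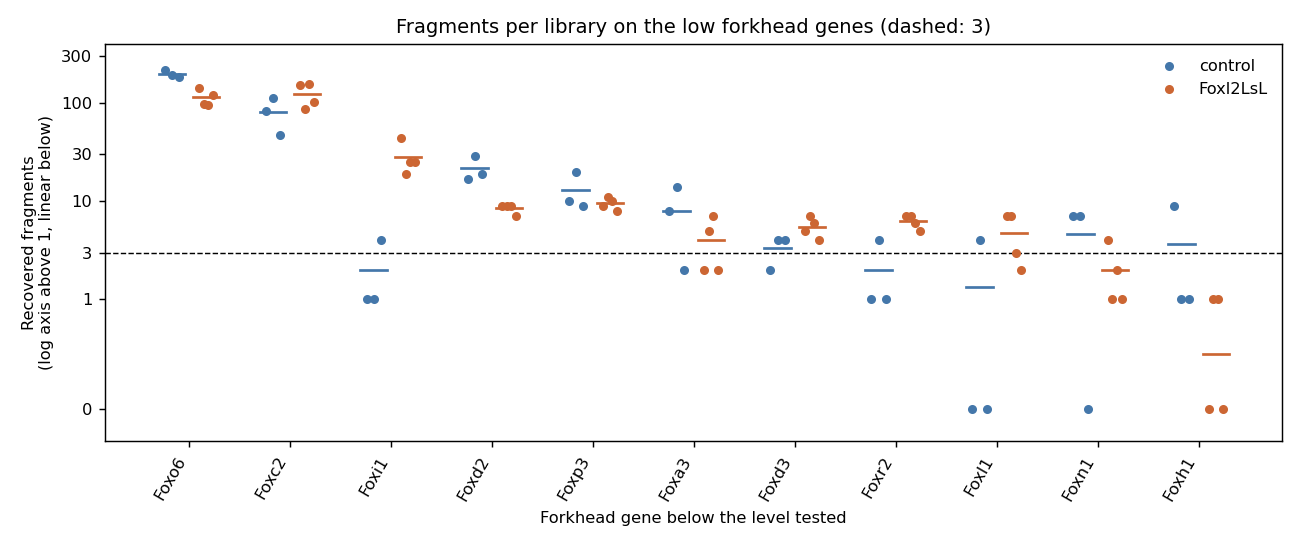
Recovered fragments per library (log axis above 1, linear below) of the 11 forkhead genes below 1 FPKM on average that had more than 3 fragments in some library; points are libraries, short lines are group means and the dashed line marks 3 fragments. Foxi1 has 1 to 4 fragments in controls and 19 to 44 in the libraries labelled Foxl2LsL.

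Some members lie next to each other in the genome. On chromosome 8, Foxf1, Foxc2 and Foxl1 stand in a row with gaps of 28026 and 9044 bases, and they differed: Foxf1 fell, Foxc2 was higher in all 4 libraries labelled Foxl2LsL and Foxl1 was near the floor. On chromosome 13, Foxq1, Foxf2 and Foxc1 follow each other with gaps of 64839 and 175229 bases, with Foxq1 lower in all 4 libraries, Foxf2 at the floor and Foxc1 overlapping. On chromosome 8, Foxf1 and Foxc2 thus went opposite ways, though Foxc2 lay below the level tested. Foxl1 and Foxf2 show no direction at this depth. Neither Foxq1 nor Foxc1 was called, so the chromosome 13 row does not tell whether neighbours share a direction.

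Of 14 genes reported as targets of FOXL2 in ovary or pituitary, 6 were tested. The cyclin gene Ccnd2 (by 1.11 on the log2 scale) and the cholesterol transporter gene Star (by 0.88) rose, Ptgs2, the inducible prostaglandin synthase, fell by 1.36 on the log2 scale, and 3 were not called. Of 7 listed markers of granulosa cells and oocytes, Amh was at 0.163 to 0.606 FPKM, Fshr at no more than 0.110 FPKM and Cyp19a1 at no more than 0.025 FPKM. Most of the list's level lay in its other markers: all 7 summed to 5.71 to 7.69 FPKM in controls and 5.13 to 10.3 FPKM in the others. Only 1 of the 7 was above the level tested, and it was not called. Pgr, whose locus carries Cre, was at 24.8 to 39.0 FPKM in controls and 23.8 to 26.5 FPKM in the others and was not called (log2 fold change -0.36; adjusted p 0.0845, and 0.00168 without control 4).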

How the data were processed

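The authors deposited 1 table of FPKM values for whole mouse uterus, with 1 column per library and another value, the gene length in bases, per the file headers. STAR 2.5.2b, featureCounts 1.5.0-p1 and DESeq2 1.12.4 and the build mm10 are named, without roles, per the submitters' processing notes; the annotation and the use of strand are not given in the sources used here. Fragments were recovered as whole multiples of 1 step per library: in every library 100% of the low values checked (genes up to 1500 bases, up to 20 steps) came within a tolerance of 0.1 of whole, a window that random values would meet in 20% of cases. Counting error is covered only, since PCR copies are not independent.

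Groups came from the sample titles. Values were compared as log2(FPKM + 1) with limma 3.58.1 in R 4.3.3 (intensity trend), over the 13334 genes with a mean of at least 1 FPKM, with Benjamini-Hochberg adjustment and a threshold of 0.05. Every tested member was named; low members were named with values from 10 fragments in every library of a group. From each list up to 4 called genes with the largest change are named; others are named as examples chosen after their values were seen. Members and lists were chosen with earlier results of these data known, and lists were given no test of their own. Same-numbered libraries were not treated as pairs in the main fit. Their deviations from the group means correlated at 0.228, -0.0588 and -0.0587, against -0.244 to 0.219 for libraries of different number. With so few libraries this does not settle whether they are matched, and a fit with a block for the replicate number is given below. The limma step was tested on simulated data. Coordinates are from GENCODE M21 and upstream windows from RefSeq, both on GRCm38, matched by symbol (44 and 28 of 44 members). Figures used Python 3.11.15 and matplotlib 3.10.9. The values of 1 low member and of 1 list gene are not reported here.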

Additional observations from a re-analysis of the deposited data

Results flagged for a closer look

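Among the 4 libraries labelled Foxl2LsL, the Foxq1 level of library 1, at 0.452 FPKM, lay far below those of the other 3 (1.05 to 1.17 FPKM). Of the 36 sets of 4 values examined this way, 1 stood apart, and chance alone gives about 1 in 20. Without that library the log2 fold change of Foxq1 was -0.31 with an adjusted p of 0.0589 (limma).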

How the results depend on the processing

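The count of 10 forkhead genes called, of 21 tested, lay between 8 and 14 over the alternatives except with a mean of at least 5 FPKM. Fewer genes were tested there: of 11 members 5 were called and 2 were lower, with 3980 of all 9476 genes called. The 14 came from the fit from 0.1 FPKM, which tested 3 more members and called 36.2% of all 16728 genes. As reported, the share of all genes was 40.6%. The counts of these 2 fits thus do not cover the same members. Leaving out each library in turn gave 8 to 10 called, 3 to 5 higher and 4 to 7 lower, and 3840 to 5318 of all genes. Foxm1, Foxa2, Foxk1, Foxk2, Foxp1, Foxp2 and Foxs1 kept direction and call in every alternative that tested them, with adjusted p up to 0.0155, 0.0127, 0.0442, 0.0176, 0.0278, 0.0293 and 0.0487. For Foxs1 these were only 16 of the 19 alternatives. It fell below the level tested without control 2 or control 4, and in the fit from 5 FPKM. Whether its call would hold without either control was thus not tested. Foxl2 turned to -0.10 without control 1 and to -0.01 without Foxl2LsL 4, within a range of -0.10 to 0.28 over the fits without a library. Foxi3 turned to 0.0362 after rescaling to a common sum, 0.39 with limma-voom on the fragments and 0.20 with pseudocount 0.1, and over the fits without a library it ran from -0.59 to 0.35, turning to 0.12 without Foxl2LsL 1, 0.35 without control 1 and 0.04 without control 2. Foxp4 turned to 0.0143 with limma-voom, 0.00327 with quantile normalization and 0.16 without control 1, within -0.25 to 0.16 over the fits without a library. None of these reached the threshold and the cause was not tested. The replicate block on the libraries numbered 1, 2 and 4 gave 3243 of all genes and 8 forkhead genes, against 3975 and 9 for the same 6 libraries without the block. On these 6 libraries the block ended the calls of Foxf1 and Foxj2 and brought back that of Foxj1 (adjusted p 0.0648 without and 0.0305 with the block). Of called genes 41.1% were higher as reported and 52.3% with limma-voom. Genes of the target and partner lists called were 52 of 98 tested (53.1%, against 40.6% of all genes), and 38 to 55 over the alternatives. Outside the FOXM1 and hedgehog lists they were 31 of 75 (41.3%). Depth limited the 19 members with few fragments.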
